A study of Mus musculus with 6 samples.

Results

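Wnt pathway readouts and regulators were followed in whole mouse pancreas at postnatal day 7 as 10 genes chosen by symbol, Axin2, Lgr4, Lgr5, Lef1, Tcf7, Tcf7l1, Tcf7l2, Ctnnb1, Rnf43 and Znrf3, of 23337 symbols counted. All 10 were found in each of the 6 count tables, and 9 passed the filter on low counts that left 13017 genes for testing. The mutant group held 3 libraries from mice that carried Ptf1a cre/+ and in addition the transgene CAG-loxP-STOP-loxP-Prox1-LacZ, whose stop cassette is cut out by Cre, so that the CAG promoter drives Prox1 and LacZ in cells of the Ptf1a lineage. The control group held 3 libraries from mice with Ptf1a cre/+ alone, so the Cre insertion at Ptf1a is shared by all 6. The strain was NMRI in every case. The series design speaks of control pools but of single mutant pancreata, while the extraction protocol speaks of individual organs, so pooling and genotype cannot be told apart. The labels name no litter or day for any library, and the p-values measure only the spread between these 6 samples, which may be technical.

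Wnt ligands bind Frizzled receptors with the co-receptors Lrp5 and Lrp6, which stops a complex built around Axin and Apc from marking beta-catenin for destruction. Beta-catenin, the product of Ctnnb1, then enters the nucleus and activates genes with the DNA-binding factors Tcf7, Tcf7l1, Tcf7l2 and Lef1. Axin2, Rnf43 and Znrf3 are both targets and brakes of the pathway, and Lgr4 and Lgr5 are receptors for R-spondins, which relieve the brake set by Rnf43 and Znrf3. In the mouse pancreas, Ctnnb1 is known to be needed for the growth of the acinar lineage before birth.

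Prox1, the gene carried by the transgene, was at 25.5, 31.3 and 30.9 CPM (counts scaled to library size by TMM) in mutants 1 to 3 and at 10.8, 7.84 and 9.13 CPM in controls 1 to 3, so the groups did not overlap. Libraries held 7304727 to 10773223 counts, and 1 CPM stands for 7.3 to 10.8 counts before scaling. Markers of acinar cells were 14 genes, mostly of digestive enzymes and their regulators. They summed to between 302552 and 361055 CPM in mutants and between 365742 and 408319 CPM in controls. Libraries stood apart in 2 ways that touch the results below. Mutant 2 held 88.0 CPM of 14 T lymphocyte markers, where no other library held more than 16.4 CPM. Control 1 held 7110 counts of Xist and 0 counts of Y-linked genes, and each of the other 5 held 1132 to 1463 Y-linked counts and no more than 4 of Xist.

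No member passed the test between mutant and control pancreas. By edgeR's quasi-likelihood test 0 of the 9 tested had an adjusted p under 0.05, against 2.06% of all genes tested. At an unadjusted p under 0.05 there was 1 of 9, Lgr4, which was lower in mutants, against 12.8% of all genes and 7.36% of them in that direction. DESeq2 called 0 members, against 2.58% of all genes, and at an unadjusted p had 2, Lgr4 and Tcf7, against 8.77%. Their median log2 fold change was 0.00, as it was over all genes tested. Groups did not overlap in 2 of 9, against 19.0% of all genes tested in either direction. Both were lower in mutants, against 9.86% of all genes in that direction.

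**Figure D1:**
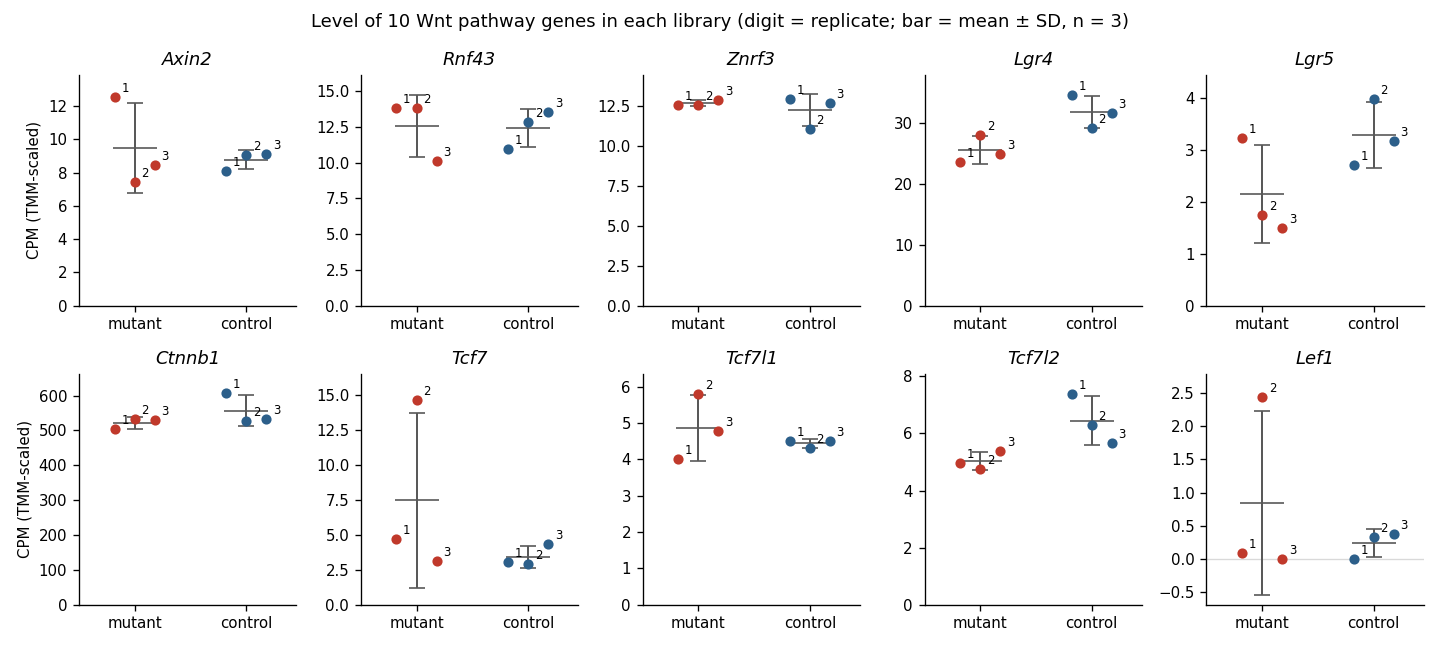
CPM of each of the 10 genes in 3 mutant (red, left) and 3 control (blue, right) libraries, with replicate numbers at the points and mean ± SD as bars on linear axes. Mutant 1 is highest for Axin2, mutant 2 for Tcf7 and Lef1, and the groups separate for Lgr4 and Tcf7l2 only.

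Axin2, the scaffold of the destruction complex that serves as the usual readout of beta-catenin activity, was at 12.6, 7.43 and 8.49 CPM in mutants 1 to 3 and at 8.12, 9.06 and 9.13 CPM in controls 1 to 3. Mutant 1 stood above all other libraries, and the other mutants lay within or below the control range. The mean was 9.49 ± 2.72 CPM in mutants and 8.77 ± 0.564 CPM in controls (SD, n = 3 each), a log2 fold change of 0.12 ± 0.20 (SE; edgeR adjusted p = 0.885). The 95% interval ran from 1.26-fold lower to 1.48-fold higher, and without mutant 1 the log2 fold change was -0.14. The gene lies on chromosome 11 at chr11:108920349-108950783, plus strand (GENCODE M21, GRCm38), and 3.8% of its exon bases overlap the antisense gene Gm11670.

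Because the members include both the factors that read the pathway in the nucleus and genes that they regulate, the 250 bases before each annotated start were searched for the TCF/LEF motifs CTTTGAT and CTTTGTT on both strands. RefSeq starts were found for 8 of the 10 members, with 15 windows in all. The motifs lay in 1 window of 15 (6.67%), against 8.06% of 32851 windows of the same length. Counted by gene, this was 1 of 8 members (12.5%), against 9.21% of 27025 genes. The window before Axin2, shown because Axin2 is the readout, held neither motif, nor their shared 5-letter start CTTTG on either strand, and is printed 5′ to 3′ (GRCm38.p6, chr11:108920099-108920348, plus strand). The window with a motif belongs to an internal start of Tcf7l2, lies outside its annotated exons, and is shown for the 24 bases before the motif and all that follow up to the start, with the motif in capitals (chr19:55895283-55895320, plus strand).
Axin2: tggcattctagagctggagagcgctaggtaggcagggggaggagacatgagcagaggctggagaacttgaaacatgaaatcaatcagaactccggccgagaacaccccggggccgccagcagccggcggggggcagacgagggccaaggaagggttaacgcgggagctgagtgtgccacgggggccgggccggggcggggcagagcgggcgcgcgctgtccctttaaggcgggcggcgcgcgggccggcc
Tcf7l2: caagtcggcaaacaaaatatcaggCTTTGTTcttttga
The Axin2 window has 69.2% G and C, against a median of 52.4% over all windows. The 5-letter start CTTTG, on either strand, occurred in 7 of 15 member windows (46.67%) and in 48.58% of all. Those member windows belong to Lef1, Tcf7l1 and Tcf7l2 only, and windows of the same gene can overlap, as for Lef1. A match in these windows, or the lack of one, describes the letters alone. Bases outside the windows were not searched.

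Rnf43, a membrane ubiquitin ligase that removes Frizzled from the cell surface, was at 13.8, 13.8 and 10.1 CPM in mutants 1 to 3 and at 11.0, 12.8 and 13.6 CPM in controls 1 to 3. The groups overlapped, and the log2 fold change was 0.00 ± 0.16 (SE, n = 3; edgeR adjusted p = 0.998), with a 95% interval from -0.36 to 0.36. Znrf3, the related ligase of the same function, was at 12.6, 12.5 and 12.9 CPM in mutants 1 to 3 and at 12.9, 11.0 and 12.7 CPM in controls 1 to 3. Its 3 mutant libraries lay within the control range, and its mean was 12.7 ± 0.190 CPM in mutants and 12.2 ± 1.02 CPM in controls (SD, n = 3 each). The log2 fold change of Znrf3 was 0.05 ± 0.13 (SE; edgeR adjusted p = 0.921), and its 95% interval, from 1.17-fold lower to 1.26-fold higher, was narrow. Both genes lie on chromosome 11, Rnf43 at chr11:87662722-87735539 on the plus strand and Znrf3 at chr11:5276324-5444847 on the minus strand, and neither has exon bases shared with an antisense gene.

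Among the R-spondin receptors, Lgr4 had 23.6, 28.1 and 25.0 CPM in mutants 1 to 3 against 34.6, 29.3 and 31.6 CPM in controls 1 to 3. All 3 mutants were below all 3 controls. The mean was 25.55 ± 2.29 CPM in mutants and 31.8 ± 2.66 CPM in controls (SD, n = 3 each), which is 80.3% of the control mean. The log2 fold change of -0.32 ± 0.11 (SE) had an edgeR p of 0.0178 before adjustment and missed the threshold after it (edgeR adjusted p = 0.251). Its 95% interval, before adjustment over genes, ran from -0.56 to -0.07, and leaving out any 1 library gave values between -0.38 and -0.26. The edgeR p before adjustment then ran from 0.00834 without mutant 2 to 0.0727 without mutant 1. Scaled by library totals alone, the log2 fold change of Lgr4 was -0.15 (edgeR adjusted p = 0.513), where the median of all genes moved to 0.17. Lgr4 lies at chr2:109917647-110014257, plus strand, with no antisense overlap and 0 of its 50-base stretches shared with another gene. The summed acinar markers given above were also lower in 3 of 3 mutants than in any control, with 1 of 13 tested markers called lower and 0 higher, and their part in the Lgr4 values was not tested. In whole tissue, fewer cells of a type and less RNA per cell cannot be told apart.

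Lgr5, the R-spondin receptor best known as a marker of intestinal stem cells, was near the limit of the depth, with 34, 15 and 15 counts in mutants 1 to 3 and 18, 36 and 33 counts in controls 1 to 3. On the CPM scale these were 3.24, 1.74 and 1.50 in mutants 1 to 3 and 2.71, 3.98 and 3.17 in controls 1 to 3. Mutants 2 and 3 lay below all controls, while mutant 1 lay among them. The log2 fold change was -0.60 ± 0.34 (SE, n = 3; edgeR adjusted p = 0.526), with a 95% interval from 2.57-fold lower to 1.12-fold higher. Leaving out 1 library moved the value between -1.03 without mutant 1 (edgeR adjusted p = 0.331) and -0.39 without mutant 3 (0.780), and to -0.44 without control 2 (0.836). Lgr5 lies at chr10:115450311-115587780 on the minus strand. Mutant 1 was the highest of the mutants for Lgr5 and for Axin2. Rnf43 was at 13.8 CPM in mutants 1 and 2 alike, and Znrf3 was highest in mutant 3.

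Ctnnb1, which encodes beta-catenin, a component of adherens junctions as well as of the pathway, was at 503, 533 and 529 CPM in mutants 1 to 3 and at 609, 528 and 534 CPM in controls 1 to 3. Control 1 stood above the other 5 libraries, which lay within 503 to 534 CPM. With 15172 counts in mutants and 14382 in controls, its log2 fold change was -0.09 ± 0.12 (SE; edgeR adjusted p = 0.814), and the 95% interval ran from 1.28-fold lower to 1.12-fold higher. Scaled by library totals alone, the sign turned to 0.08, where the median of all genes also moved to 0.17. Ctnnb1 lies at chr9:120929216-120960507 on the plus strand, and 14.6% of its exon bases overlap the antisense gene Ulk4, whose reads cannot be told apart without a stated strand setting.

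**Figure D2:**
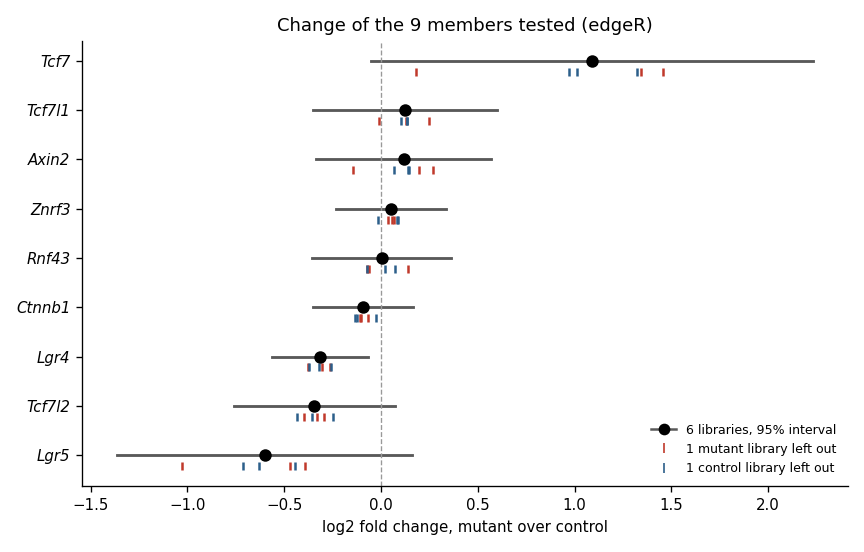
Log2 fold change of mutant over control for the 9 members tested, with 95% intervals before adjustment over genes (black dots and lines). Ticks under each line are the values without 1 mutant (red) or 1 control (blue) library. The tick of Tcf7 at 0.18 is the value without mutant 2.

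Among the DNA-binding factors, Tcf7 was at 4.67, 14.6 and 3.09 CPM in mutants 1 to 3 and at 3.01, 2.87 and 4.32 CPM in controls 1 to 3. Mutant 2 was 3.13-fold above the next highest library, mutant 1, which was itself above every control. Mutant 3 lay within the control range. The log2 fold change of 1.09 ± 0.51 (SE, n = 3; edgeR adjusted p = 0.423) was 0.18 without mutant 2 (edgeR adjusted p = 0.865). Lef1 was too low to be tested, with 1, 21 and 0 counts in mutants 1 to 3 and 0, 3 and 4 counts in controls 1 to 3. On the CPM scale Lef1 was at 0.0952, 2.44 and 0 in mutants 1 to 3 and at 0, 0.331 and 0.384 in controls 1 to 3, so that mutant 2 again held most of it, 6.34-fold above the next highest library. With no filter on low counts Lef1 had an edgeR adjusted p of 0.729. Tcf7 lies at chr11:52252371-52283014 on the minus strand and Lef1 at chr3:131110471-131224356 on the plus strand. Of the exon bases of Lef1, 13.75% overlap the antisense gene Gm43352, whose reads cannot be told apart without a stated strand setting.

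Tcf7 and Lef1 are also the TCF/LEF factors of T lymphocytes, and markers of those cells were likewise highest in mutant 2. Among the other libraries Tcf7 was highest in mutant 1, at 4.67 CPM, and lowest in control 2, at 2.87 CPM. The 14 T lymphocyte markers summed to 3.71, 88.0 and 3.99 CPM in mutants 1 to 3 and to 3.46, 10.5 and 16.4 CPM in controls 1 to 3. All 14 were highest in mutant 2, among them Cd3g, a chain of the T cell receptor complex, with 0, 71 and 0 counts in mutants 1 to 3 and 0, 5 and 19 counts in controls 1 to 3. Of these markers 6 had no count in mutant 1, 5 in mutant 3 and 6 in control 1, and every marker had a count in the other 3 libraries. The 8 B lymphocyte markers were highest in mutant 2 as well, and summed to 2.19, 32.6 and 2.10 CPM in mutants 1 to 3 and 2.56, 15.5 and 16.0 CPM in controls 1 to 3. Their part in the Tcf7 and Lef1 values was not tested. In mutants 1 and 3 and control 1, where T lymphocyte markers summed to at most 3.99 CPM, Tcf7 was between 3.01 and 4.67 CPM.

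**Figure D3:**
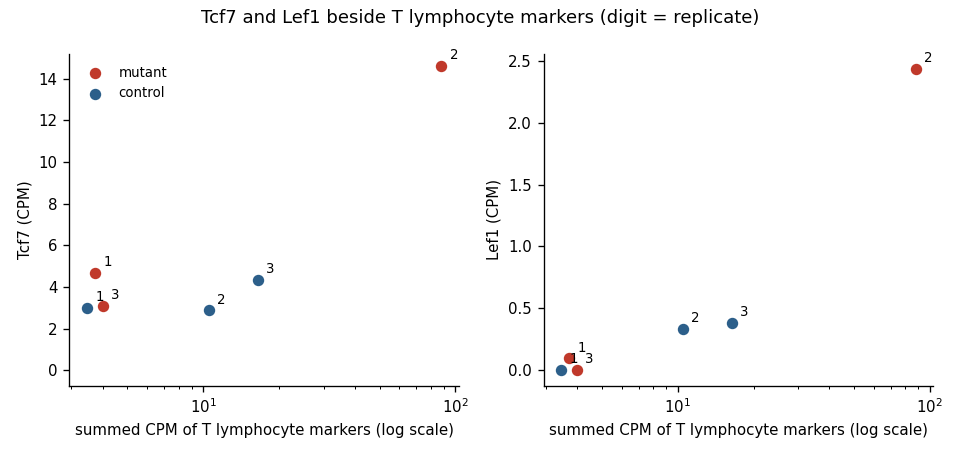
Tcf7 (left) and Lef1 (right) in CPM on linear axes against the summed CPM of 14 T lymphocyte markers on a log axis, with 1 point per library (mutant red, control blue, digit = replicate). Mutant 2 lies far to the upper right in both, and no correlation is given because 1 library sets the pattern.

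The remaining factors were steadier. Tcf7l1, mostly a repressor of Wnt targets when beta-catenin is absent, was at 4.00, 5.80 and 4.79 CPM in mutants 1 to 3 and at 4.51, 4.31 and 4.52 CPM in controls 1 to 3. Mutant 1 was below and mutants 2 and 3 were above the control range, with a log2 fold change of 0.12 ± 0.21 (SE, n = 3; edgeR adjusted p = 0.884) and of -0.01 without mutant 2. Tcf7l2, whose human counterpart is the best known risk gene of type 2 diabetes, was at 4.95, 4.76 and 5.39 CPM in mutants 1 to 3 and at 7.37, 6.30 and 5.67 CPM in controls 1 to 3. Every mutant was below every control, and the log2 fold change was -0.34 ± 0.19 (SE, n = 3; edgeR adjusted p = 0.504), with a 95% interval from -0.76 to 0.07. Endocrine markers, 17 genes, summed to 5447 CPM in control 1, where Tcf7l2 was highest. The sum was 3749, 3447 and 3704 CPM in mutants 1 to 3 and 3362 and 3592 CPM in controls 2 and 3. Control 2, with the lowest sum, had the next highest Tcf7l2, and 0 of the 17 markers were called. Their part in the Tcf7l2 values was not tested. Without control 1 the log2 fold change of Tcf7l2 was -0.25. Tcf7l1 lies at chr6:72626378-72789254 on the minus strand and Tcf7l2 at chr19:55741820-55933654 on the plus strand. Of the exon bases of Tcf7l1, 4.56% overlap the antisense gene Gm15401.

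Levels of different members were compared per kilobase of exon. Ctnnb1 stood far above the rest, at 100.5 ± 3.14 CPM per kilobase in mutants and 107 ± 8.66 CPM per kilobase in controls (SD, n = 3 each). Lgr4 followed with 4.34 ± 0.390 CPM per kilobase in mutants and 5.41 ± 0.452 CPM per kilobase in controls. Rnf43, Axin2 and Znrf3 lay close together, at 1.92 ± 0.328, 1.72 ± 0.493 and 1.60 ± 0.0241 CPM per kilobase in mutants and at 1.90 ± 0.202, 1.59 ± 0.102 and 1.55 ± 0.130 CPM per kilobase in controls. Tcf7 was at 2.84 ± 2.38 CPM per kilobase in mutants and 1.30 ± 0.306 CPM per kilobase in controls, and Tcf7l1 at 1.24 ± 0.230 and 1.133 ± 0.0302 CPM per kilobase in the same groups. At the low end, Tcf7l2 had 0.574 ± 0.0370 CPM per kilobase in mutants and 0.735 ± 0.0978 CPM per kilobase in controls, Lgr5 0.210 ± 0.0918 and 0.320 ± 0.0626, and Lef1 0.0960 ± 0.157 and 0.0272 ± 0.0237. Among mutants the neighbours Lgr4 and Tcf7, Tcf7 and Rnf43, Rnf43 and Axin2, Axin2 and Znrf3, and Lgr5 and Lef1 overlapped over their 3 libraries. Among controls the neighbours Axin2 and Znrf3, Znrf3 and Tcf7, and Tcf7 and Tcf7l1 overlapped.

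Of the summed level of the 4 TCF/LEF genes per kilobase, Tcf7 made up 52.7%, 70.8% and 39.1% in mutants 1 to 3 and 36.5%, 37.1% and 47.2% in controls 1 to 3. The share of Tcf7l2 was 16.7%, 6.89% and 20.4% in mutants 1 to 3 and 26.8%, 24.3% and 18.5% in controls 1 to 3. Lef1 was below 4% of the sum in each library, and its highest share was 3.52% in mutant 2.

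**Figure D4:**
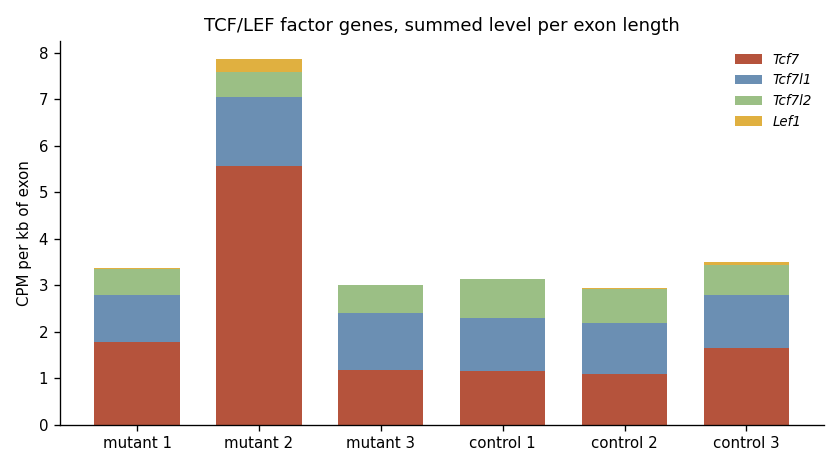
Stacked level of Tcf7, Tcf7l1, Tcf7l2 and Lef1 in CPM per kilobase of exon in each of 3 mutant and 3 control libraries. The sum is 7.87 in mutant 2 and between 2.95 and 3.49 in the other 5 libraries, and the Tcf7 segment is the part that differs most.

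The genes whose pattern over the 6 libraries was most like that of Axin2, by Pearson's r of log2 CPM among 10034 genes with a mean of at least 5 CPM, were Pkm2 (0.974), Fam98b (0.973) and Syde1 (0.972). For Lgr5 they were Poll (0.986), Nol6 (0.978) and Lsmd1 (0.973). With 6 libraries 12 genes reached r above 0.95 with Axin2 and 13 with Lgr5, which describes these libraries alone. Axin2, Pkm2, Fam98b and Syde1 were each highest in mutant 1. The number that unrelated genes would give was not computed, so these r values do not show shared regulation.

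The rest of the pathway was read from 7 lists by role, with 123 genes of which 122 had a symbol in the tables and 94 were tested. Of the 94, 0 rose and 1 fell over all genes tested, against 0.545% and 1.51% of all genes in those directions, and their median log2 fold change was 0.00. Without overlap of the groups, 8 of the 94 were higher and 14 lower in mutants. Over all genes tested these shares were 9.13% and 9.86%. The 28 listed genes that were counted but not tested had at most 1.28 CPM in any library, among them Lgr6, the third R-spondin receptor, with 0 to 4 counts, and Sp5, a direct Wnt target, with 0 to 3 counts.

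Of Wnt ligands and secretion genes 10 of 21 were tested and 0 were called. Wls, which carries Wnt proteins to the cell surface, was the most abundant per kilobase and was at 62.5 ± 3.23 CPM in mutants and 60.6 ± 5.24 CPM in controls (SD, n = 3 each). Wnt4, a ligand of developing epithelia, moved most, with 2.67, 2.67 and 2.40 CPM in mutants 1 to 3 and 4.06, 4.09 and 4.52 CPM in controls 1 to 3. Its groups did not overlap, and its log2 fold change of -0.71 ± 0.23 (SE) missed the threshold (edgeR adjusted p = 0.194). Of R-spondins and Lgr6, 2 of 5 genes were tested and 0 called: Rspo1 had a log2 fold change of 0.08 ± 0.29 and Rspo3 of 0.13 ± 0.22 (SE, n = 3).

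Of Frizzled receptors and co-receptors 15 of 16 were tested and 0 were called, with log2 fold changes between -0.38 and 0.49. Ryk, a Wnt-binding receptor of the kinase family, was the most abundant per kilobase (46.3 ± 0.663 CPM in mutants and 43.4 ± 3.97 CPM in controls, SD, n = 3 each), and Fzd9 had the largest difference, 0.49 ± 0.44 (SE). Of secreted and membrane inhibitors 12 of 19 were tested and 0 were called. Sostdc1, a secreted antagonist of Wnt and BMP signalling, led this list per kilobase, with 86.3, 98.2 and 118 CPM in mutants 1 to 3 and 128, 112 and 130.0 CPM in controls 1 to 3. Frzb, a secreted Frizzled-related antagonist, was at 2.86, 2.79 and 2.60 CPM in mutants 1 to 3 and at 4.96, 5.08 and 4.52 CPM in controls 1 to 3, without overlap. Its log2 fold change of -0.82 ± 0.22 (SE) missed the threshold (edgeR adjusted p = 0.104).

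Of the destruction complex and dishevelled genes 18 of 19 were tested and 0 were called. Csnk1d, a casein kinase, was the most abundant per kilobase (69.1 ± 3.33 CPM in mutants and 73.1 ± 3.60 CPM in controls, SD, n = 3 each). Dvl3, a dishevelled adaptor that passes the signal on from Frizzled, was at 14.8, 17.2 and 14.1 CPM in mutants 1 to 3 and at 24.2, 19.7 and 20.8 CPM in controls 1 to 3. The groups of Dvl3 did not overlap, but its log2 fold change of -0.49 ± 0.13 (SE) missed the threshold (edgeR adjusted p = 0.112).

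Among nuclear co-factors 19 of 19 were tested and 1 fell. This was Tle6, a relative of the Groucho co-repressors that bind TCF/LEF factors, at chr10:81590904-81601073 on the minus strand. It was at 36.0, 44.8 and 45.8 CPM in mutants 1 to 3 and at 68.7, 56.6 and 63.3 CPM in controls 1 to 3, without overlap. Its log2 fold change was -0.57 ± 0.12 (SE, n = 3; edgeR adjusted p = 0.0430), and the call was lost in 8 of 14 alternatives, over which the adjusted p ran from 0.00515 to 0.172. Those 8 were library totals alone (0.115), totals without digestive enzyme genes (0.0549), the replicate number as a block (0.0937), and leaving out mutant 1 (0.172), mutant 3 (0.0777), control 1 (0.116), control 2 (0.0841) or control 3 (0.138), all by edgeR adjusted p. Aes, a short Groucho relative and the most abundant of the list per kilobase, was at 170.4 ± 4.92 CPM in mutants and 180.5 ± 8.14 CPM in controls (SD, n = 3 each). Pygo1, a co-activator that works with Bcl9, had the largest difference, 0.67 ± 0.37 (SE), and was not called.

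Of Wnt target genes other than the members 18 of 24 were tested and 0 were called. Oat, a target of the pathway in the liver, was the most abundant per kilobase (105.2 ± 3.45 CPM in mutants and 99.4 ± 3.71 CPM in controls, SD, n = 3 each). Tnfrsf19, a receptor of the TNF family, was at 32.2, 22.6 and 31.9 CPM in mutants 1 to 3 and at 17.3, 16.6 and 21.3 CPM in controls 1 to 3, without overlap. Its log2 fold change of 0.65 ± 0.16 (SE) missed the threshold (edgeR adjusted p = 0.0827), and it was past it with DESeq2 (adjusted p = 0.0326), with library totals alone (edgeR adjusted p = 0.0250) and without mutant 2 (edgeR adjusted p = 0.0108). Cd44, a cell surface receptor for hyaluronan named here because of its values, was likewise called without mutant 2 (edgeR adjusted p = 0.0127) and with library totals alone (0.0388), but not with TMM scaling of all 6 libraries (0.130).

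**Figure D5:**
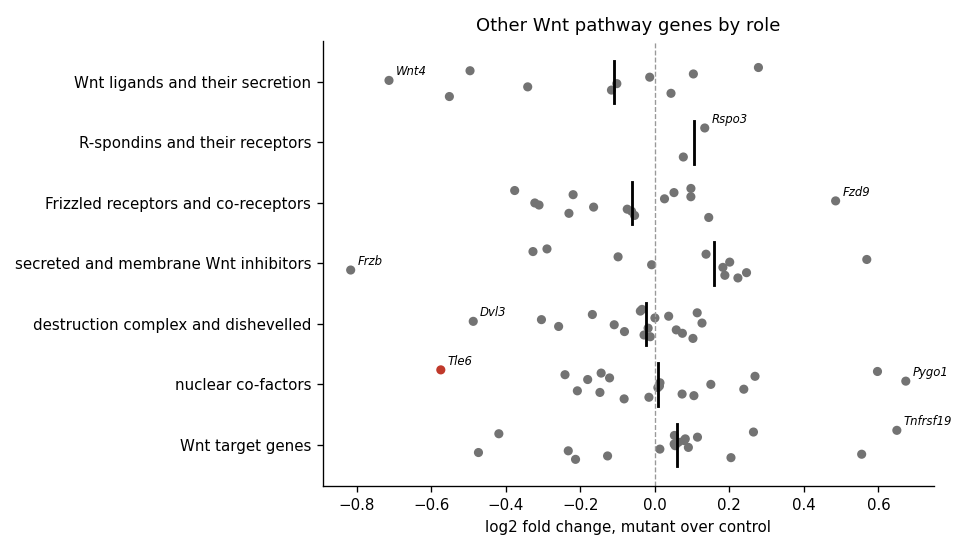
Log2 fold change of mutant over control for 94 tested genes of 7 Wnt pathway lists, 1 point per gene, with the median of each list as a black line. Tle6, in red, is the gene past the threshold, and the other labelled genes have the largest difference of their list.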

How the data were processed

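RNA of whole pancreas was sequenced from TruSeq mRNA libraries on a NextSeq, per the design text. The deposited values were raw counts per gene symbol, 1 table per library. The tools DESeq2, HTSeq 0.6.1p1, STAR and cutadapt 1.13 and the build mm10 are named in the submitters' processing notes with no role or order. Not given in the sources used here are the annotation, the strand setting and the treatment of reads with several matches.

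Groups and replicate numbers came from sample titles. The counts were tested with edgeR 4.0.16 in R 4.3.3 (quasi-likelihood test, TMM, filterByExpr, no covariate), with Benjamini-Hochberg adjustment over 13017 genes and a threshold of 0.05. DESeq2 1.42.0 was an alternative. The standard error is the absolute log2 fold change over the square root of F. Pairs of libraries within a group had a chi-square per degree of freedom between 5.83 and 20.5, so all 6 were kept apart. The fit was tested on simulated data. Coordinates and exon lengths came from GENCODE M21 and upstream windows from RefSeq (GRCm38.p6). The members and lists were chosen with earlier results of these data known. Named were the 10 members, Prox1, and of each pathway list the called genes, the most abundant gene per kilobase and the largest difference at a mean of at least 1 CPM. Ptf1a, at 14.9 ± 0.529 CPM in mutants and 19.8 ± 1.85 CPM in controls (SD, n = 3 each), shares 40.4% of its exon bases with Ptf1aos.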

Additional observations from a re-analysis of the deposited data

How the results depend on the processing

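Under 14 alternatives 0 members were called, and 118 of 126 member values kept their direction. The 8 that turned had adjusted p of at least 0.707. With library totals alone Ctnnb1 was 0.077, Csnk1d 0.0838 and Aes 0.0883, where the median of all genes moved to 0.17 and 59.4% of called genes were higher against 26.5% with TMM. Leaving out 1 library moved Axin2 between -0.14 and 0.27, Tcf7l1 between -0.0102 and 0.25, Rnf43 between -0.0722 and 0.14, Znrf3 between -0.0161 and 0.0906, Wls between -0.0179 and 0.1053, and Rspo1 between -0.20 and 0.50. The cause was not tested. The 1 pathway gene called became 2 with library totals alone, 2 with DESeq2, 0 with totals without digestive enzyme genes, and 0 to 3 when 1 library was left out. All genes called were 125 to 301 when 1 library was left out, 125 without control 2, 139 without mutant 1, and 140 without control 3. Same-numbered libraries deviated from their group means with r of 0.0798, 0.0289 and -0.0708. Other pairs across the groups had r between -0.11 and 0.11, so these values show no pairing by number. They cannot exclude a shared litter or day. With the replicate block 241 genes, 0 members and 0 pathway genes were called, and Rnf43 turned to -0.0025. Lgr5 and Lef1 are limited by depth, with 151 and 29 counts over 6 libraries.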

Other observations

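Rspo1, an R-spondin of mesothelium, was at 10.7, 10.4 and 9.28 CPM in mutants 1 to 3 and at 4.96, 9.06 and 14.0 CPM in controls 1 to 3. Wnt2b, a ligand of mesenchyme, was at 13.2, 12.5 and 12.1 CPM in mutants 1 to 3 and at 8.57, 10.4 and 20.9 CPM in controls 1 to 3. Apcdd1, a membrane inhibitor of Wnt signalling, was at 4.86, 3.48 and 3.79 CPM in mutants 1 to 3 and at 1.65, 2.65 and 5.77 CPM in controls 1 to 3. For all 3 genes control 1 was the lowest library and control 3 the highest, and the mutants lay between. The summed level of 8 mesothelial markers was 187, 157 and 173 CPM in mutants 1 to 3 and 151, 230 and 274 CPM in controls 1 to 3. That of 15 fibroblast and stellate markers was 6000, 4528 and 5649 CPM in mutants 1 to 3 and 4160.5, 5616 and 6315 CPM in controls 1 to 3. Both sums had the same lowest and highest library as the 3 genes, and their part in these values was not tested. Wnt2b and Apcdd1 were chosen after their values were seen.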
